A study of Mus musculus with 16 samples.

Results

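Transforming growth factor-beta (TGF-beta) was followed through 10 genes, chosen by name from its known machinery: the ligands Tgfb1, Tgfb2 and Tgfb3, the latency proteins Ltbp1, Ltbp2 and Ltbp3, the receptors Tgfbr1, Tgfbr2 and Tgfbr3, and the matrix protein gene Tgfbi. Each was present once among the 49452 genes of the expression tables, which held FPKM (fragments mapped to a gene, relative to the length of its transcript and the number of mapped fragments) for tdTomato-positive cells sorted from the left lung lobe of 16 mice. Reporter mice carried the tdTomatoflox allele and a tamoxifen-inducible Cre driven by the promoter of either Acta2 (Acta2-CreERT2, called Acta2-tdT), which encodes alpha-smooth muscle actin, or Pdgfra (Pdgfra-CreERT2, called Pdgfra-tdT), which encodes a platelet-derived growth factor receptor. Lungs were taken at 11 weeks of age, 14 days after saline or bleomycin, an agent that injures the lung and leads to fibrosis, with 4 mice in each of the 4 groups. All mice had received tamoxifen, but Acta2-tdT mice ate it (400 mg/kg of food) from 5 days after the instillation, whereas Pdgfra-tdT mice had been injected with 3 mg on 5 occasions at 6 weeks of age, so that the driver and the labelling schedule cannot be told apart. In the Acta2 schedule, cells that switched Acta2 on after injury could be labelled as well as cells that already expressed it. The mice were male and on a C57BL6 background.

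TGF-beta is secreted as an inactive complex: the mature ligand stays bound to its propeptide, and a latent TGF-beta binding protein (LTBP) tethers that complex to fibrillin and fibronectin in the matrix. Integrins or proteases release the ligand, which is bound by the type II receptor TGFBR2 that then phosphorylates the type I receptor TGFBR1, with betaglycan (TGFBR3) presenting ligand to the pair. The activated type I receptor phosphorylates SMAD2 and SMAD3, which raise transcription of matrix genes, and in the lung this route is known for its part in scarring.

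The libraries differed in a way that touched every gene. The summed FPKM of nuclear protein-coding genes, which would be alike if the same share of each library came from them, was 36688 to 60947 in Acta2-tdT saline mice and 241916 to 466183 after bleomycin, against 29964 to 61168 and 29727 to 147467 in Pdgfra-tdT mice. The median FPKM of 1445 olfactory and vomeronasal receptor genes, which lung cells are not known to use, ran the other way: 0.323 to 0.332, 0.0134 to 0.122, 0.176 to 0.336 and 0.0920 to 0.317 in the same order of groups. Each result is therefore given as deposited and as scaled FPKM, in which every mouse was brought to a nuclear protein-coding sum of 51978.7. Markers of the labelled cell types were checked in the same mice, as sums of scaled FPKM unless stated. Smooth muscle markers summed to 245 to 355 scaled FPKM in Acta2-tdT saline mice and 341 to 523 after bleomycin. Of these 7 markers, Des and Actg2 were called higher on scaled FPKM and Myh11 and Lmod1 lower (limma, adjusted p under 0.05). As deposited 5 were called higher and none lower. The 8 fibroblast markers summed to 13.2 to 53.2 in Pdgfra-tdT saline mice and 4.51 to 62.3 after bleomycin. In those injured mice none of the 8 reached 1 FPKM in all mice, and Tcf21, a transcription factor of lung fibroblasts, was listed at 0 in all 4. Pdgfra itself averaged 2.79 ± 0.797 FPKM (SD, n = 4) in Pdgfra-tdT saline mice and 1.70 ± 0.658 (SD, n = 4) after bleomycin. In Acta2-tdT mice it averaged 0.386 ± 0.125 with saline and 7.87 ± 3.94 after bleomycin (SD, n = 4 each), so that after injury the deposited level of Pdgfra was higher in the line not labelled through it, against the label. On scaled FPKM those injured means were 1.05 ± 0.363 in Acta2-tdT and 1.56 ± 0.642 in Pdgfra-tdT mice. The 8 macrophage markers summed to 644 to 1703 scaled FPKM in Pdgfra-tdT bleomycin mice against 32.1 to 133 with saline, and to 318 to 1040 in Acta2-tdT bleomycin mice against 93.5 to 339.5 with saline. In the Acta2-tdT line the sum of the 5 neutrophil markers went from 1015 to 1547 with saline to 134 to 909.5 after bleomycin. That of the 5 pericyte markers went from 29.3 to 42.3 to 6.41 to 10.8. As deposited neither sum fell: neutrophil sums were 738 to 1475 and 1136 to 5682 FPKM, and pericyte sums 28.6 to 34.3 and 33.1 to 72.5. The pericyte markers were split. On scaled FPKM Cspg4 was called higher and Notch3, Higd1b and Cox4i2 lower, and as deposited Cspg4 and Pdgfrb were higher and Cox4i2 lower. In such bulk samples fewer cells of a type and less RNA per cell cannot be told apart.

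Tgfb2 was the leading ligand of the injured Acta2-tdT cells. Its FPKM was 0.872, 0.860, 1.56 and 1.004 in Acta2-tdT saline mice 1 to 4, and 31.6, 19.8, 34.5 and 44.6 in bleomycin mice 5 to 8. In the Pdgfra-tdT line it was 0.233, 0.362, 0.631 and 0.533 with saline and 0.331, 0.360, 0.213 and 0.328 with bleomycin. All 4 injured Acta2-tdT mice thus lay above the other 12, and the Pdgfra-tdT groups overlapped. On scaled FPKM the same 4 mice kept the highest values, 4.07 to 5.06, against 0.856 to 1.64 in Acta2-tdT saline mice and 0.117 to 0.768 in all Pdgfra-tdT mice.

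Tgfb3, a ligand known from palate and lung development, followed a similar course at a lower level. In Acta2-tdT mice its FPKM was 0.687, 0.930, 1.56 and 1.09 with saline and 21.6, 13.2, 22.3 and 33.3 with bleomycin. Among Pdgfra-tdT mice it was 0.301, 0.220, 0.0642 and 0.229 with saline and 2.86, 0.0850, 0.470 and 0.0506 with bleomycin, where mouse 5 stood above the other three. Tgfb2 exceeded Tgfb3 in each injured Acta2-tdT mouse, by a factor of 1.34 to 1.54 on this per-length scale, and was within 0.923 to 1.27 of it in the saline mice.

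Tgfb1, the ligand most often studied in fibrosis and a product of platelets and leukocytes, was hardly detected. Its FPKM was 0.219, 0.0291, 0.145 and 0.119 in Acta2-tdT saline mice and 0.684, 0.457, 1.72 and 1.42 after bleomycin. In Pdgfra-tdT mice it was 0.0873, 0.0593, 0 and 0.0241 with saline and 0.0286, 0.0783, 0.505 and 0.0312 with bleomycin. The confidence bounds of Cufflinks imply that these values rested on few fragments, about 1.0 to 9.6 per Acta2-tdT saline mouse, 16 to 63.5 per injured Acta2-tdT mouse and 0 to 13 per Pdgfra-tdT mouse. In the injured Acta2-tdT mice Tgfb2 was 20.1 to 46.3 times Tgfb1 and Tgfb3 was 13.0 to 31.6 times Tgfb1. On scaled FPKM Tgfb1 overlapped between the groups, at 0.0981 to 0.203 in those mice and 0.0413 to 0.301 in Acta2-tdT saline mice. Pdgfra-tdT bleomycin mouse 7, with the highest scaled value of its group (0.595), also had the highest summed platelet markers of that group, 26.9 against 1.93 to 3.27. Whether platelet RNA had a part in it was not tested.

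Since the 3 ligand genes lay so far apart in the injured Acta2-tdT cells, the 250 bases upstream of the highest and the lowest are shown from RefSeq (GRCm38.p6), 5′ to 3′ on the strand of the gene, with matches to 4 motifs in capitals. The motifs were the TATA box (TATAAA), the E-box (CACGTG), the AP-1 site (TGANTCA) and the SMAD-binding CAGAC, each sought on both strands. The Tgfb2 stretch lies at chr1:186705990-186706239 on the minus strand and the Tgfb1 stretch at chr7:25686752-25687001 on the plus strand.
Tgfb2: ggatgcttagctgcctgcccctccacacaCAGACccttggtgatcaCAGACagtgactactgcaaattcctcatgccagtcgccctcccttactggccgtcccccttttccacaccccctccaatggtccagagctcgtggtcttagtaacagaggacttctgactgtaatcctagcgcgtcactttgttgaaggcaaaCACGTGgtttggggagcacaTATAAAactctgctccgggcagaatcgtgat
Tgfb1: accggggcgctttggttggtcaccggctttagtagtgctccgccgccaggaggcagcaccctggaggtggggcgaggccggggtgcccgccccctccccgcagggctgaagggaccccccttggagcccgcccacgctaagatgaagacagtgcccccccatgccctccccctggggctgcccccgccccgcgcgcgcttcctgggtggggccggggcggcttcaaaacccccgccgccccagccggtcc
Counted from the gene's start, Tgfb2 held a TATA box at -31, an E-box at -51 and CAGAC at -221 and -204, and the Tgfb1 stretch held none of the 4 motifs. Among 32851 promoters of the same length, 12.4% held TATAAA, 6.02% the E-box, 6.75% the AP-1 site and 42.2% CAGAC. This last motif was also found upstream of Tgfbr2, Ltbp1, Ltbp2, Ltbp3 and Tgfbi, and in the second of the Tgfbr1 stretches, 32994 bases inside the gene. A match is a description of letters and not a binding site. RefSeq stretches were matched for 8 of the 10 genes, without Tgfb3 and Tgfbr3.

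**Figure D1:**
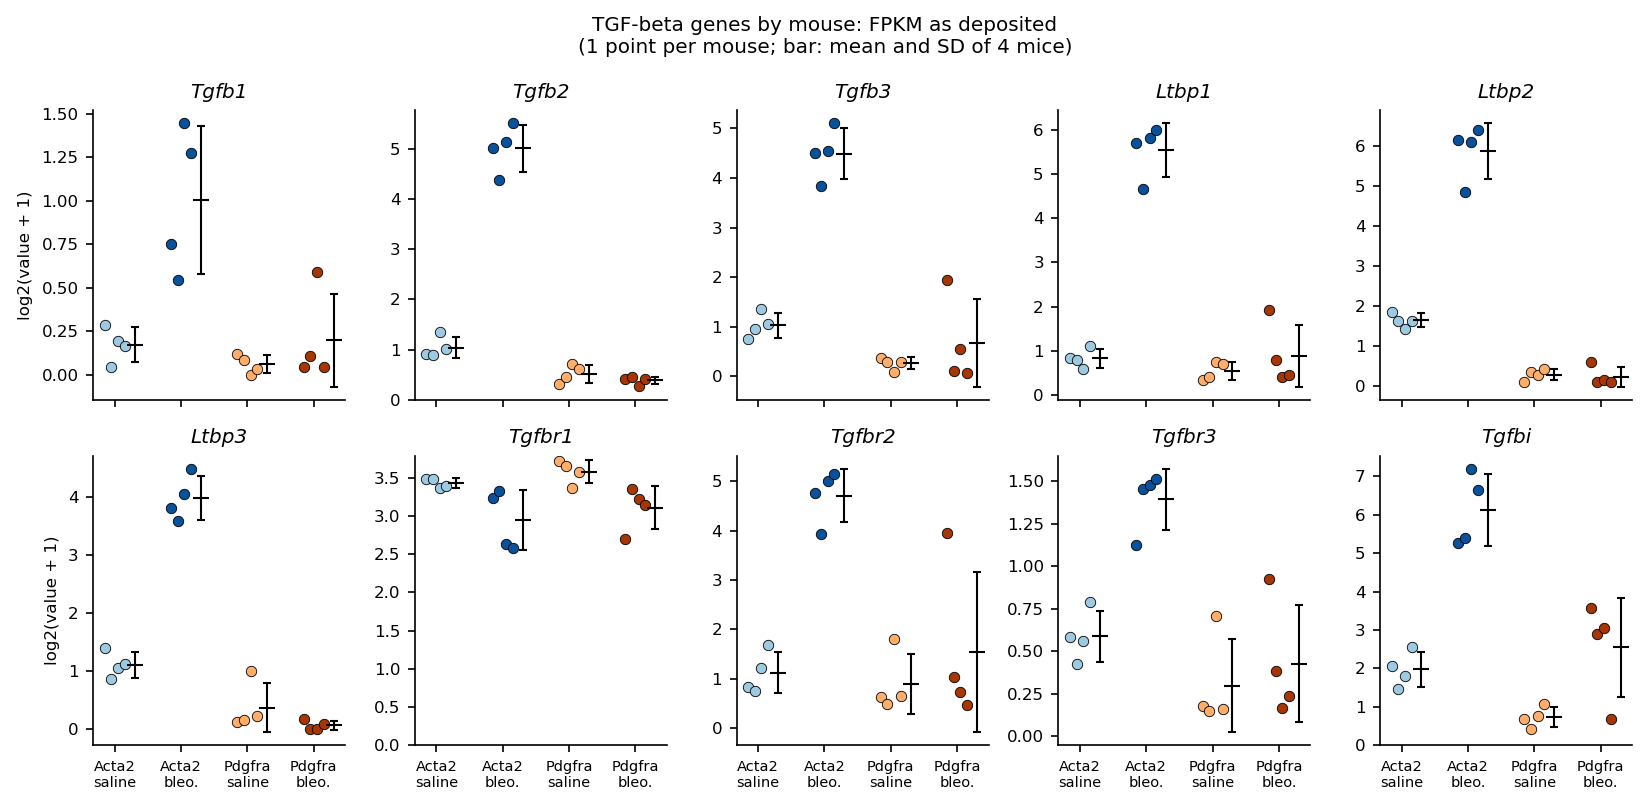
FPKM as deposited of the 10 TGF-beta genes, as log2(FPKM + 1), with 1 point per mouse for each of the 4 groups and the mean and SD of the 4 mice beside them. All genes but Tgfbr1 were higher in each injured Acta2-tdT mouse than in each Acta2-tdT saline mouse, and Tgfbr1 was lower, in a comparison where 70.4% of all genes tested were called higher.

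Of the latency proteins, Ltbp1 and Ltbp2 had the highest mean FPKM of the 10 genes after Tgfbi in injured Acta2-tdT cells. Ltbp1, which anchors latent TGF-beta to fibronectin and fibrillin, was at 0.794, 0.733, 0.497 and 1.15 FPKM in Acta2-tdT saline mice and at 50.9, 24.1, 54.9 and 62.5 with bleomycin. In the Pdgfra-tdT line it was at 0.264, 0.339, 0.686 and 0.627 with saline and at 2.78, 0.728, 0.335 and 0.381 with bleomycin. The injured Acta2-tdT mice lay apart from all others, and the Pdgfra-tdT groups overlapped.

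Ltbp2, a fibrillin-binding family member that is not known to bind latent TGF-beta itself, was the member that best told the lines apart. Its FPKM was 2.65, 2.12, 1.71 and 2.12 in Acta2-tdT saline mice and 70.4, 28.1, 68.2 and 83.3 with bleomycin. Among Pdgfra-tdT mice it was 0.0668, 0.272, 0.220 and 0.353 with saline and 0.520, 0.0734, 0.106 and 0.0713 with bleomycin. Every Acta2-tdT mouse, whatever its treatment, was thus above every Pdgfra-tdT mouse. The same held for Tgfb2, at 0.860 FPKM or more against at most 0.631.

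Ltbp3, which helps the TGF-beta complex to be secreted, reached lower levels. It was at 1.61, 0.803, 1.06 and 1.17 FPKM in Acta2-tdT saline mice and at 13.1, 11.0, 15.7 and 21.6 with bleomycin. In Pdgfra-tdT mice it was at 0.0760, 0.102, 0.983 and 0.160 with saline, and at 0.120, 0, 0 and 0.0531 with bleomycin. Injured Acta2-tdT mice lay above the rest, and the injured Pdgfra-tdT mice held 0 to about 10.1 implied fragments each. With injury the balance among the 3 shifted in Acta2-tdT cells: Ltbp1 was 0.467 to 0.978 times Ltbp3 in saline mice and 2.19 to 3.87 times in bleomycin mice, and Ltbp2 fell from 1.85 to 3.45 times Ltbp1 to 1.17 to 1.38 times, as ranges over mice that no scaling can alter.

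The receptors did not move together. Tgfbr2, the ligand-binding type II receptor, was at 0.788, 0.681, 1.34 and 2.21 FPKM in Acta2-tdT saline mice and at 26.3, 14.3, 31.2 and 34.2 with bleomycin. In the Pdgfra-tdT line it was at 0.539, 0.398, 2.47 and 0.567 with saline and at 14.5, 1.05, 0.650 and 0.376 with bleomycin. In each Pdgfra-tdT group a single mouse was high, saline mouse 3 and bleomycin mouse 5, which also had the highest summed endothelial markers of their groups, 278 and 316 scaled FPKM against 6.37 to 16.6 and 6.61 to 87.4 in the other mice. The same mice had the highest fibroblast sums, 53.2 against 13.2 to 22.5 and 62.3 against 4.51 to 18.5. Lung endothelium is known for strong Tgfbr2 expression, and the part of either cell type in these values was not tested.

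Tgfbr1, the type I receptor, was at 4.97 FPKM or more in every mouse, which held for no other member. Its FPKM was 10.2, 10.2, 9.37 and 9.47 in Acta2-tdT saline mice and 8.42, 9.05, 5.23 and 4.97 after bleomycin. Among Pdgfra-tdT mice it was 12.2, 11.6, 9.33 and 11.0 with saline and 5.52, 9.27, 8.30 and 7.86 with bleomycin. Injured mice lay below saline mice in both lines, and on scaled FPKM the distance grew in Acta2-tdT cells, to 0.554 to 1.94 against 8.08 to 14.4, while the Pdgfra-tdT groups overlapped at 1.94 to 13.7 and 7.93 to 21.1. The mice with the lowest median of olfactory and vomeronasal receptor genes in each line, Acta2-tdT bleomycin mouse 8 (0.0134) and Pdgfra-tdT bleomycin mouse 5 (0.0920), also had the lowest Tgfbr1 of their line, 4.97 and 5.52. The order did not hold within the injured Acta2-tdT group, where mouse 5 had a lower receptor median (0.0381) than mouse 7 (0.0449) but more Tgfbr1 (8.42 against 5.23). On scaled FPKM the protein-coding genes whose pattern over the 16 mice was most like that of Tgfbr1 were Olfr859 (Pearson r = 0.993), Slc6a18 (r = 0.992) and Olfr1160 (r = 0.992), among 10364 genes searched. Tgfbr1 varied little as deposited, and any such gene follows the scaling factor of each mouse once scaled, so this likeness is a description that the scaling itself can give. Olfr859 and Olfr1160 encode olfactory receptors and Slc6a18 a transporter known from kidney. How much of the Tgfbr1 value is transcript of sorted cells was not tested.

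**Figure D2:**
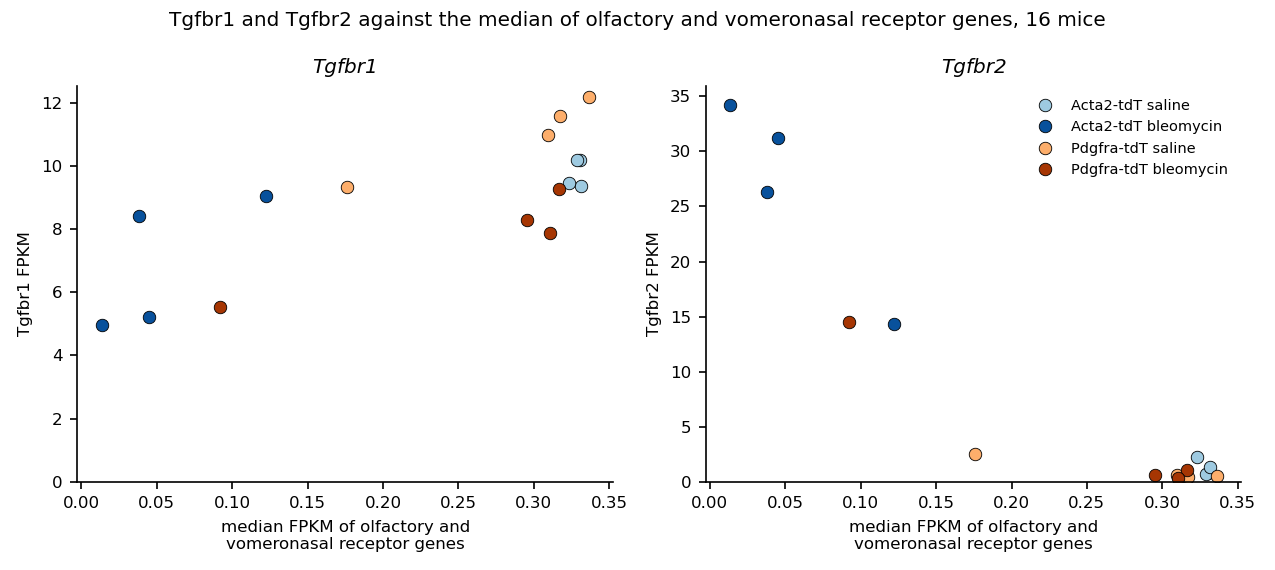
FPKM of Tgfbr1 (left) and Tgfbr2 (right) against the median FPKM of 1445 olfactory and vomeronasal receptor genes, with 1 point per mouse coloured by group. Acta2-tdT bleomycin mice sit at a receptor median of 0.0134 to 0.122 with Tgfbr1 at 4.97 to 9.05 and Tgfbr2 at 14.3 to 34.2, and the saline mice of both lines have Tgfbr2 at no more than 2.47.

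Tgfbr3, the co-receptor betaglycan, was low throughout. In Acta2-tdT mice its FPKM was 0.496, 0.341, 0.473 and 0.729 with saline and 1.19, 1.75, 1.78 and 1.86 with bleomycin. In Pdgfra-tdT mice it was 0.129, 0.111, 0.631 and 0.116 with saline and 0.896, 0.306, 0.120 and 0.181 with bleomycin. The Acta2-tdT groups did not overlap on either scale but in opposite orders: on scaled FPKM injured mice were at 0.190 to 0.375 and saline mice at 0.483 to 0.680. As a ratio within each mouse, Tgfbr2 over Tgfbr1 went from 0.0669 to 0.233 in Acta2-tdT saline mice to 1.58 to 6.89 after bleomycin, and the Pdgfra-tdT groups overlapped at 0.0343 to 0.265 and 0.0478 to 2.63.

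Tgfbi, which encodes a secreted adhesion protein of the matrix first found as a TGF-beta-induced gene and also made by macrophages, had a higher mean FPKM after bleomycin in both lines, although only the Acta2-tdT difference passed the test. Its FPKM was 3.20, 1.75, 2.49 and 4.83 in Acta2-tdT saline mice and 37.8, 40.8, 146 and 99.2 with bleomycin. In the Pdgfra-tdT line it was 0.590, 0.343, 0.677 and 1.10 with saline and 11.0, 6.46, 7.33 and 0.587 with bleomycin. In the Pdgfra-tdT line mice 5, 6 and 7 were above all saline mice and mouse 8 was among them. Summed macrophage markers were 1080 to 1703 scaled FPKM in mice 5 to 7, 644 in mouse 8 and at most 133 in saline mice, but the order did not hold throughout. Mouse 6 had the highest of these sums (1703) with less scaled Tgfbi (6.17) than mouse 7 (8.63, sum 1479). In the injured Acta2-tdT group mouse 7 was highest in both (17.3 scaled FPKM, sum 1040), whereas mouse 6 had a larger sum (805) but less Tgfbi (8.76) than mouse 8 (479 and 11.1). The part of macrophages in the level of Tgfbi was not tested. Its closest patterns over the 16 mice were those of Man2b1 (r = 0.964), Capg (r = 0.958) and Ctsc (r = 0.954), of which Ctsc encodes a lysosomal protease of myeloid cells and Capg an actin-capping protein abundant in macrophages.

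The comparison of injured with uninjured Acta2-tdT cells asked how the population labelled through Acta2 responds to bleomycin. As deposited, 8 of the 9 genes that could be tested were higher after bleomycin and none was lower (limma, Benjamini-Hochberg over 12523 genes, threshold 0.05), but so were 70.4% of all genes, whose median log2 fold change was 1.76. The fold changes on the log2(FPKM + 1) scale were led by Ltbp1 (4.70, SE 0.356, adjusted p = 1.08e-05), Ltbp2 (4.23), Tgfbi (4.16) and Tgfb2 (3.98, SE 0.321, adjusted p = 1.17e-05), each above that median by 2 units or more. Tgfbr2 (3.59), Tgfb3 (3.46) and Ltbp3 (2.89) also exceeded the median, whereas Tgfbr3 rose by less than it (0.81, adjusted p = 0.00111). Tgfbr1 differed by -0.49 (95% interval -1.15 to 0.18, adjusted p = 0.147), although each injured mouse was below each saline mouse (exact two-sided permutation p = 0.0286, the smallest that 4 against 4 mice can give). Tgfb1 did not reach 1 FPKM in 4 of the 8 mice and was not tested; fitted without that filter it differed by 0.83 (adjusted p = 0.0229). Tgfbr3 passed the filter through its injured mice alone and so had to differ as deposited.

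On scaled FPKM, where the median of all genes was -0.01, 6 of the 9 tested genes remained higher, against 24.5% of all genes, and 2 were lower, against 32.5%. Ltbp1 led with a log2 fold change of 2.01 on the log2(value + 1) scale (SE 0.196, adjusted p = 2.92e-05). Its mean scaled FPKM, without the added 1, was 7.38 times that of saline mice. Ltbp2 (1.45), Tgfbi (1.36), Tgfb2 (1.33), Tgfbr2 (1.02) and Tgfb3 (0.92) followed, with 2.62 to 3.74 times the mean scaled FPKM and adjusted p from 0.00015 to 0.00498. These 6 genes were higher in all 4 injured mice than in any saline mouse. The share of all genes without overlap was not computed, so this is a description. Ltbp3 was at 2.18 ± 0.257 scaled FPKM against 1.37 ± 0.565 (SD, n = 4 each), and its difference of 0.45 missed the threshold (adjusted p = 0.0667). The log2(value + 1) scale understates changes of such low values. Tgfbr1 was lower by a log2 fold change of -2.59 (adjusted p = 4.79e-05) and Tgfbr3, in reverse of the deposited scale, by -0.33 (adjusted p = 0.0072). Tgfb1, fitted without the filter, was at 0.142 ± 0.0481 against 0.149 ± 0.111 scaled FPKM (SD, n = 4 each, adjusted p = 0.961). In the same injured mice the summed fibroblast markers lay above all saline mice, and the neutrophil, pericyte, endothelial (2.80 to 4.19 against 6.12 to 10.45) and lymphocyte markers (0.0658 to 0.793 against 1.80 to 4.15) below them. The macrophage sums overlapped in 1 pair of mice, with 5 of 7 tested markers called higher on scaled FPKM. As deposited the endothelial sums were higher after bleomycin (18.89 to 26.18 against 5.835 to 12.25 FPKM), and the neutrophil, pericyte and lymphocyte sums overlapped. The part of these cell types in the differences was not tested. Leaving out any 1 of the 8 mice kept 8 calls as deposited and gave 8 to 9 on scaled FPKM.

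**Figure D3:**
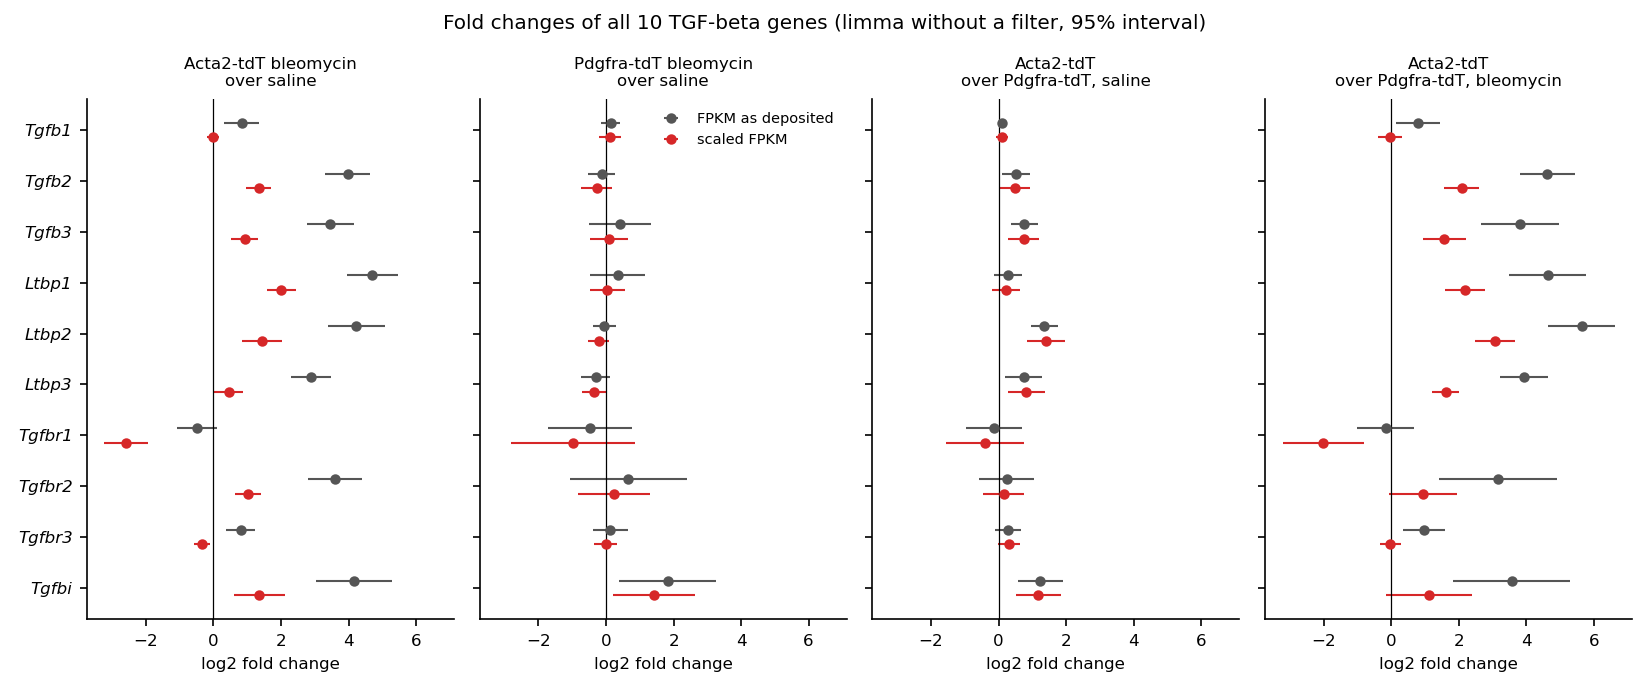
Log2 fold changes with 95% intervals of the 10 genes in 4 comparisons, fitted without a filter so that every gene is drawn, on the log2(value + 1) scale, as deposited (grey) and scaled (red). In the first panel Ltbp1 is at 4.70 as deposited and 2.01 scaled, and Tgfbr3 changes from 0.81 to -0.33; in the second panel Tgfbi (1.82 and 1.42) has the highest values.

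The same question in Pdgfra-tdT cells gave no call. Only Tgfbr1 and Tgfbi passed the filter on low values, and neither was past the threshold, with 0.124% of all 7275 genes called as deposited and 0.151% on scaled FPKM. Tgfbi was the gene with the largest estimate, 6.33 ± 4.30 FPKM after bleomycin against 0.679 ± 0.318 with saline (SD, n = 4 each), a log2 fold change of 1.82 (95% interval 0.41 to 3.24, unadjusted p under 0.05, adjusted p = 0.791). On scaled FPKM it was 1.42 (0.22 to 2.62, adjusted p = 0.746). Without bleomycin mouse 8 the deposited value was 2.45 (adjusted p = 0.0310), the only one of the 8 leave-outs that called it. Tgfbr1 was lower in each injured mouse as deposited (exact two-sided permutation p = 0.0286), with a log2 fold change of -0.47 (-1.39 to 0.45, adjusted p = 0.791). Fitted without the filter, the deposited intervals of the other 8 genes all included 0, the widest being that of Tgfbr2 (-1.08 to 2.39). On scaled FPKM the interval of Ltbp3 lay just below 0 (adjusted p = 0.833), and every injured mouse was below every saline mouse (exact two-sided permutation p = 0.0286), with all 8 mice under 1 FPKM.

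In uninjured lungs the lines were compared to see how the labelled populations differ at rest. Ltbp2, Tgfbi and Tgfbr1 could be tested, and Ltbp2 was higher in Acta2-tdT cells, by a log2 fold change of 1.36 (SE 0.158, adjusted p = 0.00454) as deposited and 1.41 (SE 0.247, adjusted p = 0.0167) scaled, with 2.72% and 3.02% of all genes higher on those scales. Mean scaled FPKM was 2.56 ± 0.913 against 0.320 ± 0.198 (SD, n = 4 each), 8.001 times as high, with no overlap between mice. The scaled call was lost without any 1 of Acta2-tdT mouse 2 or Pdgfra-tdT mice 1, 2 or 4, with adjusted p up to 0.0842 over the 8 leave-outs, and without the filter (adjusted p = 0.103), and the deposited call was lost with quantile normalization and with a fixed total sum. Both calls were also lost when the replicate numbers were fitted as blocks. Ltbp2 passed the filter through Acta2-tdT mice alone and so had to differ as deposited. Tgfbi differed by 1.24 (adjusted p = 0.0619) and by 1.18 scaled (adjusted p = 0.0667), and its groups did not overlap either; without Pdgfra-tdT mouse 3 it was called on both scales (adjusted p = 0.0208 and 0.0153). Tgfb2 and Tgfb3, below the filter, were higher in all 4 Acta2-tdT mice on both scales (exact two-sided permutation p = 0.0286), at 2.101 and 3.75 times the mean scaled FPKM. Fitted without the filter, neither passed the threshold (adjusted p = 0.478 and 0.236 as deposited, 0.559 and 0.312 scaled). In the same saline mice, markers of neutrophils (1015 to 1547 against 17.4 to 74.9 scaled FPKM), smooth muscle (245 to 355 against 7.29 to 22.3), pericytes (29.3 to 42.3 against 1.16 to 1.95) and platelets (11.6 to 46.6 against 3.02 to 3.85) were higher in the Acta2-tdT line. The part of these cell types in the differences was not tested.

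After bleomycin most of the 10 genes were higher in Acta2-tdT cells as deposited, and on scaled FPKM the latency proteins and the ligands Tgfb2 and Tgfb3 were. As deposited, 8 of 9 tested genes were higher in Acta2-tdT cells, as were 71% of all 11995 genes, and the largest log2 fold changes were those of Ltbp2 (5.65, adjusted p = 4.11e-05), Ltbp1 (4.64) and Tgfb2 (4.63), against a median of 1.81. On scaled FPKM 5 remained higher, against 17.2% of all genes: Ltbp2 (3.07, adjusted p = 0.000317), Ltbp1 (2.19), Tgfb2 (2.09), Ltbp3 (1.62) and Tgfb3 (1.58). Mean scaled FPKM was 68.8 times as high for Ltbp2, 14.3 times for Tgfb2 and 9.78 times for Ltbp1. Tgfb2, Tgfbr3, Ltbp2 and Ltbp3 stayed under 1 FPKM in all injured Pdgfra-tdT mice and so passed the filter through Acta2-tdT mice alone, which makes their calls and the counts that hold them a description. Fitted over all genes without the filter, the same 5 genes had scaled adjusted p from 0.00349 (Ltbp2) to 0.0314 (Tgfb3). Tgfbr1 was lower (-2.01, adjusted p = 0.0140), with 17.5% of all genes lower, and that call was lost without Acta2-tdT mouse 8 (adjusted p = 0.0508) and without the filter (adjusted p = 0.0763). Tgfbr2 (0.93, adjusted p = 0.113), Tgfbi (1.12, adjusted p = 0.139) and Tgfbr3 (-0.02, adjusted p = 0.850) were not called on scaled FPKM. Smooth muscle markers (341 to 523 against 1.64 to 11.2 scaled FPKM) and fibroblast markers (224 to 353 against 4.51 to 62.3) were higher in the same Acta2-tdT mice, as were neutrophil markers (134 to 909.5 against 10.9 to 51.5) and pericyte markers (6.41 to 10.8 against 0.200 to 3.37), and endothelial markers lower (2.80 to 4.19 against 6.61 to 316). As deposited the endothelial sums overlapped, at 18.89 to 26.18 FPKM in Acta2-tdT and 3.78 to 896.7 in Pdgfra-tdT mice. The part of cell make-up in these differences was not tested.

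**Figure D4:**
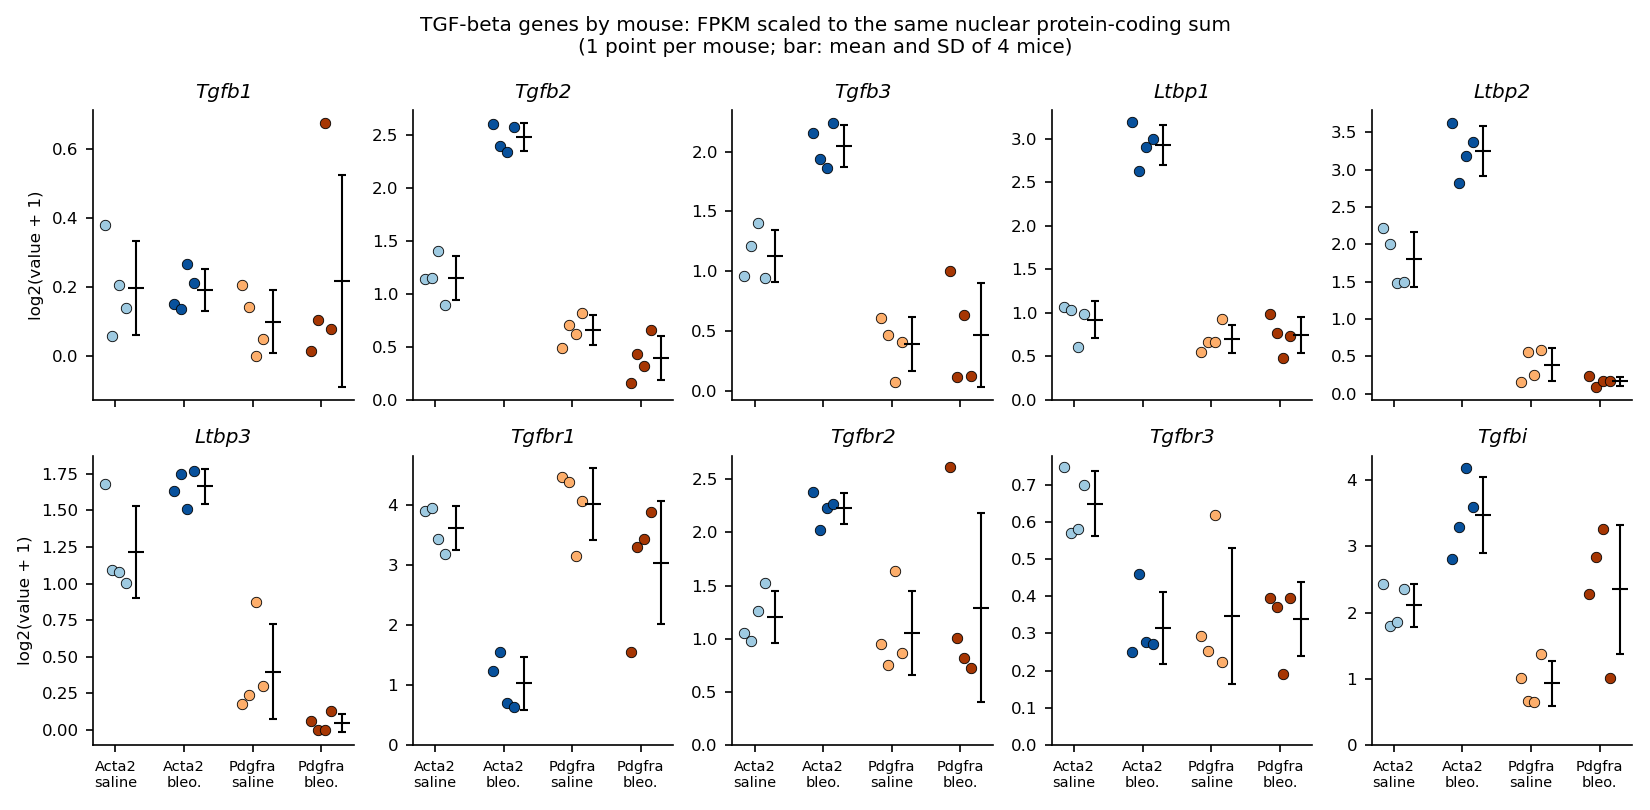
Scaled FPKM of the 10 genes, as log2(value + 1), with 1 point per mouse and the mean and SD of the 4 mice of each group. For Tgfb2, Tgfb3, Ltbp1 and Ltbp2 the injured Acta2-tdT mice stand above all other mice, Tgfb1 overlaps in all groups, and Tgfbr1 is lowest in injured Acta2-tdT mice.

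Whether the lines responded differently was tested by the interaction of line and treatment over all 16 mice. As deposited, 7 of the 9 tested genes had a larger bleomycin effect in Acta2-tdT cells, with 36.6% of all 16605 genes: Ltbp1 (4.36), Ltbp2 (4.29), Tgfb2 (4.11), Ltbp3 (3.19), Tgfb3 (3.05), Tgfbr2 (2.93) and Tgfbi (2.34, adjusted p = 0.0402). The Tgfbi call was lost in 11 of the 16 leave-outs (adjusted p up to 0.0855) and kept only without Acta2-tdT saline mouse 4, Acta2-tdT bleomycin mouse 5 or 6, or Pdgfra-tdT bleomycin mouse 5 or 7. On scaled FPKM, where 1.39% of all genes were called in that direction, 3 genes were: Ltbp1 (1.97, SE 0.307, adjusted p = 0.00283), Tgfb2 (1.60, SE 0.279, adjusted p = 0.00723) and Ltbp2 (1.66, SE 0.352, adjusted p = 0.0227). No Pdgfra-tdT mouse reached 1 FPKM of Tgfb2, Tgfbr3, Ltbp2 or Ltbp3, so these entered through Acta2-tdT mice alone and both counts are a description. Fitted over all genes without the filter, the scaled adjusted p was 0.00492 for Ltbp1, 0.0104 for Tgfb2 and 0.0489 for Ltbp2. The Ltbp2 call was lost in 6 of the 16 leave-outs (adjusted p up to 0.0575: Acta2-tdT saline mouse 3 or 4, Acta2-tdT bleomycin mouse 8, Pdgfra-tdT saline mouse 2 or 4, or Pdgfra-tdT bleomycin mouse 6), while those of Ltbp1 and Tgfb2 were kept in all 16. For Tgfbi the scaled bleomycin effects were 1.36 in Acta2-tdT and 1.42 in Pdgfra-tdT cells, a difference of -0.06 with a wide 95% interval (-1.43 to 1.31). Without Pdgfra-tdT bleomycin mouse 5, the injured Pdgfra-tdT mouse of the highest sum, the scaled count was 6, with Tgfb3 (1.02), Tgfbr2 (1.22) and, in the other direction, Tgfbr1 (-2.103) added.

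The other genes of the pathway were listed by their known role, and in Acta2-tdT cells the lists differed in how many of their calls were left on scaled FPKM. Of 6 genes that anchor or store latent TGF-beta, 4 were tested and all were higher after bleomycin as deposited and 3 on scaled FPKM, led by Fbn1, the fibrillin to which LTBPs bind (4.95 as deposited, 2.21 scaled, adjusted p = 2.41e-05), and Emilin1, a matrix glycoprotein that restrains TGF-beta processing (4.21 and 1.72). Of 11 activators, 8 were tested, 8 were higher as deposited and 6 scaled, with Mmp14 (5.56 and 2.73) and Mmp2 (5.47 and 2.66), both matrix metalloproteinases, first by adjusted p. The integrin subunits Itgb3, Itgb6 and Itgb8 did not pass the filter, Itgb6 being at 0.176 to 1.01 FPKM in injured Acta2-tdT mice. Emilin1, Itgav and Furin stayed under 1 FPKM in all saline mice, passed the filter through the injured mice alone and so had to differ as deposited. Beside these counts, 70.4% of all genes were higher as deposited and 24.5% on scaled FPKM. The medians of these lists, 1.25 and 1.53 on scaled FPKM, compare with -0.01 over all genes.

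Downstream, the SMAD transducers Smad2, Smad3 and Smad4 were all higher as deposited and none was called on scaled FPKM, where their median was 0.29. Among 8 inhibitors of the signal, 6 were tested and all were higher as deposited, but only Pmepa1, a TGF-beta-induced inhibitor of SMAD activation, was higher when scaled (1.07, adjusted p = 0.000775). Of 9 other receptors of the family 6 were tested: 5 were higher as deposited, and on scaled FPKM Eng, the endothelial co-receptor endoglin, was higher (0.59, adjusted p = 0.0252) and Acvr2a and Bmpr1a were lower. All 12 known targets were higher as deposited and 11 when scaled, with a median of 2.81. First by scaled adjusted p, not by size of change, were Fn1, which encodes fibronectin (6.83 and 4.03, adjusted p = 6.07e-06), and Col1a2, a chain of collagen I (7.06 and 4.14). The 12 targets include collagen genes that also serve as fibroblast markers, and the sum of those markers rose from 26.8 to 35.9 to 224 to 353 scaled FPKM in the same mice. All 3 SMADs, 5 of the 6 inhibitors (Pmepa1 among them), 3 of the 6 other receptors and 6 of the 12 targets (Fn1 among them) passed the filter through the injured mice alone, so these deposited counts are a description. Over all genes 70.4% were higher as deposited, and 24.5% were higher and 32.5% lower on scaled FPKM, so that the scaled counts of inhibitors and other receptors are near those shares. The counts rest on lists chosen with results of these data known.

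In Pdgfra-tdT cells none of these lists held a called gene after bleomycin, with 9 list genes tested in all, in a comparison where 0.124% of all genes were called as deposited and 0.151% scaled, so that a count of 0 says nothing particular of these genes. Between the injured lines, Acta2-tdT cells were higher on scaled FPKM in 3 of 4 tested anchoring genes, 6 of 8 activators, 1 of 3 SMADs (Smad3, 0.66, adjusted p = 0.00855), 1 of 6 inhibitors (Pmepa1, 1.38), 0 of 7 other receptors (2 of 7 as deposited) and 11 of 12 targets, with 17.2% of all genes higher. Smad3, 2 of the activators, 1 of the inhibitors, 1 of the other receptors and 4 of the targets were under 1 FPKM in all injured Pdgfra-tdT mice and passed the filter through Acta2-tdT mice alone. Thbs1, the thrombospondin that can activate latent TGF-beta, differed by 4.69 and Itgb5, an integrin subunit, by 1.89. Ltbp4, the remaining LTBP, differed by 2.27, Postn, which encodes the matrix protein periostin, by 5.15 and Cthrc1, a secreted protein of collagen-producing fibroblasts, by 4.46. The interaction on scaled FPKM called Fbn1 (2.37) of 4 anchoring genes, Thbs1 (3.70) of 8 activators, Pmepa1 (1.08) of 7 inhibitors, none of 3 SMADs or 7 other receptors, and 10 of the 12 targets, beside 1.39% of all genes. Of the targets, Tnc, the matrix glycoprotein tenascin C (3.16), and Cthrc1 (4.88) were lowest in adjusted p. In saline mice 12 list genes were tested, of which the target Postn was higher in Acta2-tdT cells as deposited and none on scaled FPKM, beside 2.72% and 3.02% of all genes.

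**Figure D5:**
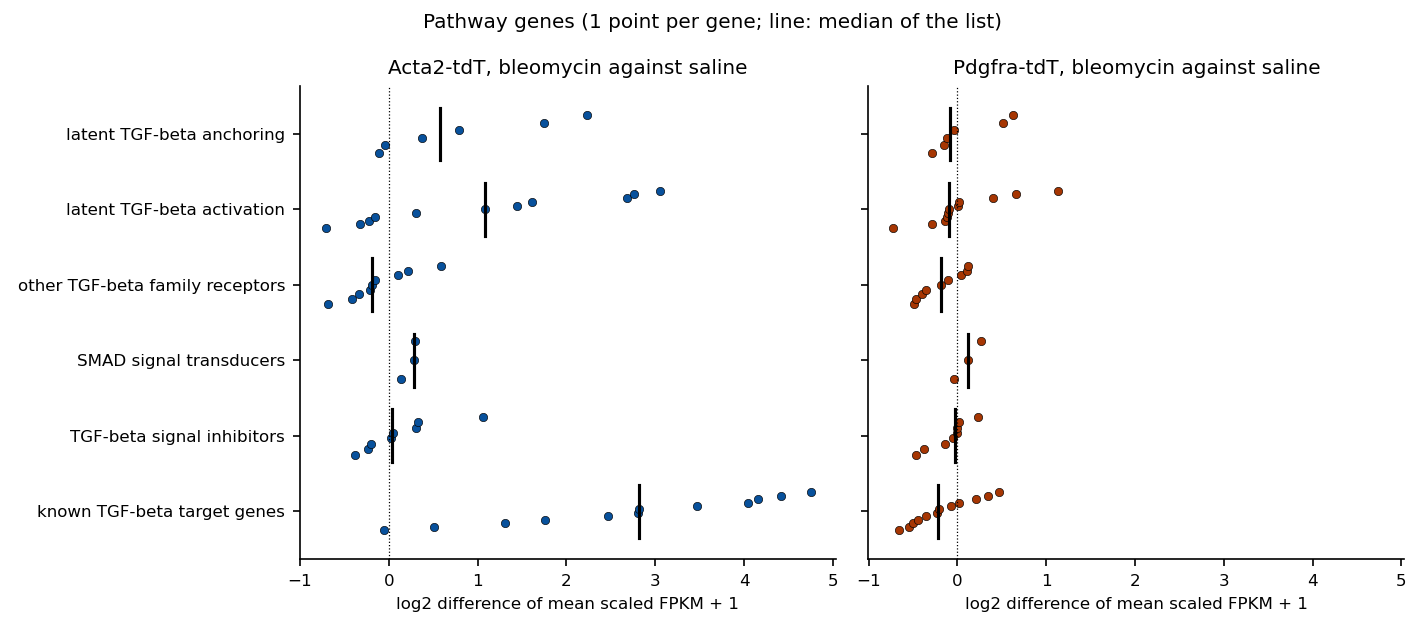
Log2 difference of mean scaled FPKM + 1, bleomycin against saline, of each pathway gene in Acta2-tdT (left) and Pdgfra-tdT (right) cells, with 1 point per gene, tested or not, and a line at the median of each list. In Acta2-tdT cells the targets lie furthest to the right, and in Pdgfra-tdT cells the points of all lists lie around 0.

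The order of the 10 levels within a group, on the per-length FPKM scale, also differed. In Acta2-tdT saline cells Tgfbr1 came first in every mouse and made up 39.6% to 55.2% of the summed FPKM of the 10 genes, and Tgfb1 came last. After bleomycin the order was Tgfbi, Ltbp2, Ltbp1, Tgfb2, Tgfbr2, Tgfb3, Ltbp3, Tgfbr1, Tgfbr3 and Tgfb1, and each gene was above the next in all 4 mice except Tgfbi over Ltbp2, which held in 3. In Acta2-tdT saline cells, Tgfbr2, Ltbp3, Tgfb2, Tgfb3 and Ltbp1 could not be put in order, since each was above the next in only 1 or 2 mice. In Pdgfra-tdT saline cells Tgfbr1 made up 59.5% to 84.2% and most other neighbours changed places between mice.

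For the other members the most similar patterns over the 16 mice are given as a description, since the 4 injured Acta2-tdT mice stand apart as a cluster and all genes share the scaling of each mouse. Tgfb2 was most like Col6a3 (r = 0.982), a collagen VI chain, Fgfr1 (r = 0.975) and Col16a1 (r = 0.973). Ltbp1 was most like Col5a2 (r = 0.986), a collagen V chain, and Cxcl14 (r = 0.986). Ltbp2 was most like Loxl1 (r = 0.985), an enzyme that cross-links elastin, Des (r = 0.971), the muscle filament desmin, and Dkk3 (r = 0.969). Tgfb3 was nearest to Fam132a (r = 0.966), Tgfbr2 to Acot9 (r = 0.968), Ltbp3 to Shisa4 (r = 0.956) and Tgfbr3 to Phip (r = 0.939).

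The loci, in GRCm38 coordinates as in the tables, spread over 9 chromosomes, with Tgfb3 and Ltbp2 both on chromosome 12, at 86056744 to 86079041 and 84783212 to 84876532 on the minus strand. The library protocol kept no strand, so reads of overlapping genes cannot be told apart: Tgfb3 overlaps Ttll5 on the other strand, Tgfb2 (chromosome 1, 186622792 to 186705989) and Ltbp2 overlap antisense transcripts, and Tgfbr3 and Ltbp1 each overlap a processed pseudogene. Tgfb1, Tgfbr1 (chromosome 4, 47353222 to 47414931), Tgfbr2 and Tgfbi have no annotated overlap.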

How the data were processed

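The authors made complementary DNA by SmartSeq2, which keeps no strand, from tdTomato-positive cells sorted by FACS from dispase-digested lung, sequenced it, aligned reads to mm10 (GRCm38) with TopHat2 2.1.1 and Bowtie2 2.2.9 and deposited the FPKM of Cufflinks 2.1.1 for each mouse, with no scaling between mice. No counts were used, and depth is known only through the fragments implied by the confidence bounds of Cufflinks. Here FPKM were summed per gene, 15 genes with a failed status were left out, and scaled FPKM brought each mouse to the median sum of 21961 nuclear protein-coding genes (51978.7). Genes with at least 1 FPKM in at least 4 mice of a comparison were tested by limma 3.58.1 (R 4.3.3, lmFit and eBayes with a trend), after adding 1 and taking log2, and p-values were adjusted by Benjamini and Hochberg's method across every gene tested (threshold 0.05). Single genes were compared by exact two-sided permutation of the 70 labellings of 4 against 4 mice. Scripts used Python 3.11.15 and were tested on simulated data. Groups came from the sample labels, and p-values measure the spread between these mice. The 10 genes and the pathway and marker lists were chosen with earlier results of these data known. Named pathway genes were, per list, up to 2 genes of lowest scaled adjusted p among those called alike on both scales, and like patterns the 3 protein-coding genes of highest Pearson r; some items under these rules are not reported here. Alternatives were other scalings, pseudocounts, filters, sample quality weights, a replicate block and leaving out each mouse.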

Additional observations from a re-analysis of the deposited data

Results flagged for a closer look

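Single mice stood far from the rest of their group in 16 of 80 checks (10 genes, 4 groups and both scales). The gap to the nearest mouse took up most of the group's range there (beyond Dixon's 95% critical value for 4 samples). That value gives about 1 of 20 for independent normal values. The checks used FPKM without logs and the same mice on both scales, so no rate expected by chance is known here. Pdgfra-tdT bleomycin mouse 5 was high in Tgfbr2 (14.5 FPKM against 0.376 to 1.05, and 5.11 scaled), Tgfb3 (2.86 FPKM), Ltbp1 (2.78 FPKM) and Ltbp2 (0.520 FPKM). Pdgfra-tdT saline mouse 3 was high in Tgfbr2 (2.47 FPKM against 0.398 to 0.567), Tgfbr3 (0.631 FPKM and 0.536 scaled) and Ltbp3 (0.983 FPKM and 0.835 scaled). These mice had the highest nuclear protein-coding sum, endothelial marker sum and fibroblast marker sum of their groups, and the part of these in the values was not tested. Pdgfra-tdT bleomycin mouse 7 was high in Tgfb1 (0.505 FPKM against 0.0286 to 0.0783, and 0.595 scaled) and low in scaled Tgfbr3 (0.142 against 0.293 to 0.316). Acta2-tdT bleomycin mouse 5 was low in Tgfbr3 (1.19 FPKM against 1.75 to 1.86), mouse 6 was high in scaled Tgfbr3 (0.375 against 0.190 to 0.210), and Acta2-tdT saline mouse 1 was high in scaled Ltbp3 (2.21 against at most 1.14).

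The bleomycin effect differed between the lines by the interaction term of limma (adjusted p under the threshold) for 7 genes as deposited, with log2 differences of 4.36 for Ltbp1, 4.29 for Ltbp2, 4.11 for Tgfb2, 3.19 for Ltbp3, 3.05 for Tgfb3, 2.93 for Tgfbr2 and 2.34 for Tgfbi. On scaled FPKM it differed for 3 of them, by 1.97 for Ltbp1, 1.66 for Ltbp2 and 1.60 for Tgfb2. Of all genes, 36.6% were called in that direction as deposited and 1.39% on scaled FPKM. Tgfb2, Ltbp2 and Ltbp3 passed the filter through Acta2-tdT mice alone, so both counts are a description. The deposited Tgfbi call was lost under 15 alternatives, and its estimate was -0.061 on scaled FPKM.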

How the results depend on the processing

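The counts of called genes after bleomycin in Acta2-tdT cells (8 on either scale) and between the injured lines (8 as deposited, 6 scaled) stayed within 1.5 times under every alternative run, with leave-outs giving 8 to 8 and 8 to 9, and 8 to 8 and 5 to 7. In Pdgfra-tdT cells the count went from 0 to 1 (Tgfbi, 2.06, adjusted p = 0.0427) with sample quality weights, and leave-outs gave 0 to 1. Between the saline lines the count went from 1 to 0 with a fixed total sum, quantile normalization, a mean FPKM of at least 5 or the replicate block, and to 2 with sample quality weights (leave-outs 1 to 2). On scaled FPKM it went to 0 without the filter, an alternative added after seeing the data, and with the replicate block (leave-outs 0 to 2). The interaction count went from 7 to 3 with the nuclear protein-coding sum and to 4 with a fixed total sum or quantile normalization (leave-outs 6 to 8). On scaled FPKM it went from 3 to 7 without both Pdgfra-tdT mice of the highest sums, also added after seeing the data (leave-outs 2 to 6). The cause of these shifts was not tested.

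Tgfbr3 changed sign with the nuclear sum, a fixed total sum and quantile normalization after bleomycin in Acta2-tdT cells (-0.33, -1.09 and -0.073) and between the injured lines (-0.024, -0.090 and -0.11), and in the interaction with the first 2 of these (-0.33 and -1.10). The Tgfbi interaction was -0.061 and -0.49 under the same 2, and on scaled FPKM 0.0063 without both high-sum mice. Leave-outs gave -0.51 to 0.24 for it, and -0.15 to 0.11 for Tgfbr1 as deposited. Of 1038 values of single genes under alternatives, 609 with a mouse left out and 330 under other settings kept their direction and side of the threshold. Same-numbered mice of the 2 lines deviated with correlations of -0.31 to 0.157 and no label ties them, so the numbers were not taken as pairs. With the replicate block 8 genes were called between the injured lines as deposited and 6 scaled. Without counts the depth is known only roughly, and the values of Tgfb1 in saline mice and in Pdgfra-tdT mice, at 0 to 13 implied fragments each, allow no small difference to be seen.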
